A study of Mus musculus with 6 samples.

Results

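MicroRNA genes that left reads in polyadenylated RNA of the mouse prefrontal cortex are described here. They are the gene rows of the deposited count table whose symbol is Mir followed by a digit and whose count, summed over the 6 libraries, was 10 or more. This gave 75 rows of the 611 microRNA rows in the table and of 23284 gene rows in all. The rows were chosen by their summed count, so their abundance is a description and carries no test. The rule itself does not use the housing contrast. It was set with earlier results of these data known, however, and names Mir132 as activity-induced.

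The RNA came from wild type mice of the inbred strain C57BL/6, labelled as 8 to 10 weeks old (the growth protocol gives C57BL/6J and 8 weeks). Prefrontal cortex was taken after 6 days in which the animals lived alone (3 single-housed libraries) or with others (3 group-housed libraries), with no other treatment or allele. Nothing in the labels ties a library to an individual animal. The p-values below therefore rest on the spread among libraries, part or all of which may be technical. The comparison asks how RNA levels differ between the housing conditions, in a series titled for a role of interferon-gamma in social behaviour.

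A microRNA is cut from a long primary transcript, which is often the intron or exon of another gene. The nuclear enzyme Drosha and its partner Dgcr8 release a short hairpin, Dicer1 trims it, and 1 strand enters an Argonaute protein, where bases 2 to 8, the seed, select target messenger RNAs. Mature microRNAs are not polyadenylated and are too short for a messenger RNA library. Reads on a microRNA row therefore come from the primary or host transcript, an unspliced intron or a similar sequence elsewhere, and not from the mature microRNA. In neurons the Mir132 and Mir212 genes share a primary transcript that the activity-dependent factor CREB is known to induce, and miR-132 is known for effects on dendrites and synapses.

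The hairpins of Mir132 and Mir212 are shown first because the difference with housing described below turns on this pair of rows. Each deposited row is as long as the RefSeq hairpin (GRCm38.p6), 66 and 91 bases. The capitals mark the mature arms, written 5′ to 3′.
Mir132 hairpin: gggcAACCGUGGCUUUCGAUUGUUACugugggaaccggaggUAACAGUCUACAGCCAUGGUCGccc
Mir212 hairpin: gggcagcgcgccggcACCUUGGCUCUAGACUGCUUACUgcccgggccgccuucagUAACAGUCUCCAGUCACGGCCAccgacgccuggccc

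RefSeq gave hairpin or mature sequences under the same symbol for 65 of the 75 rows and under an older symbol for 4 more. Several members share a seed, shown here in capitals, and would select targets by the same bases. miR-132-3p and miR-212-3p share AACAGUC, miR-27a-3p and miR-27b-3p share UCACAGU, miR-93-5p and miR-106b-5p share AAAGUGC, and the Mir138-1 and Mir138-2 genes encode the same miR-138-5p. The brain-enriched miR-9-5p is added, with miR-425-5p and miR-3072-3p from the 2 rows of smallest p-value in the higher direction.
miR-132-3p: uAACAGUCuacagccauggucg
miR-212-3p: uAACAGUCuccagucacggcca
miR-27a-3p: uUCACAGUggcuaaguuccgc
miR-27b-3p: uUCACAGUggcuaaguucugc
miR-93-5p: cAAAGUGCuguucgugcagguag
miR-106b-5p: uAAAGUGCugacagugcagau
miR-138-5p: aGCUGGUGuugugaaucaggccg
miR-9-5p: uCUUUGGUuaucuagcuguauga
miR-425-5p: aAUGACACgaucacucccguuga
miR-3072-3p: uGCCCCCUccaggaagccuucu

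Reads on these rows were few. Of the 611 microRNA rows, 407 had 0 counts in every library and 129 had a summed count of 1 to 9. The 75 members together held 850 to 1072 counts per library, or 0.00265% to 0.00371% of a library's total, which ranged from 25858355 to 33428512 counts. A count of 0 in a library allows up to 3 counts, or 0.0897 to 0.116 CPM (counts relative to library size), a limit that covers counting error only. Just inside the rule were Mir149, Mir1943 and Mir3058 with 10 counts each, and just outside it were Mir128-1, Mir5119, Mir744, Mir760 and Mir99a with 9 each. Mir128-1 belongs to a microRNA that is abundant in brain, and its row had 0 to 3 counts per library.

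The most abundant rows were not those of well-known neuronal microRNAs. Mir682 had 1264 counts, Mir3064 640, Mir703 409, Mir3072 374 and Mir3061 194. Mir9-2, 1 of the genes of the neural progenitor and neuronal microRNA miR-9, had 162 counts, while Mir9-1 and Mir9-3 had 7 and 2. Of the genes for the neuronal microRNA miR-124, Mir124a-2 had 16 counts, Mir124a-3 had 6 and Mir124a-1 had 0. Per length, averaged over the 6 libraries, Mir682 stood at 70.1 CPM per kilobase of row, Mir3064 at 51.1, Mir3072 at 23.9, Mir703 at 20.1, Mir9-2 at 11.99 and Mir3061 at 11.3. Mir17hg, the host transcript of the miR-17 to miR-92 cluster and the only member that is a long transcript (2339 bases), stood at 0.191. In the plot of levels, CPM are scaled by TMM, a factor that evens out library composition, as are all CPM with a mean and SD below.

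**Figure D1:**
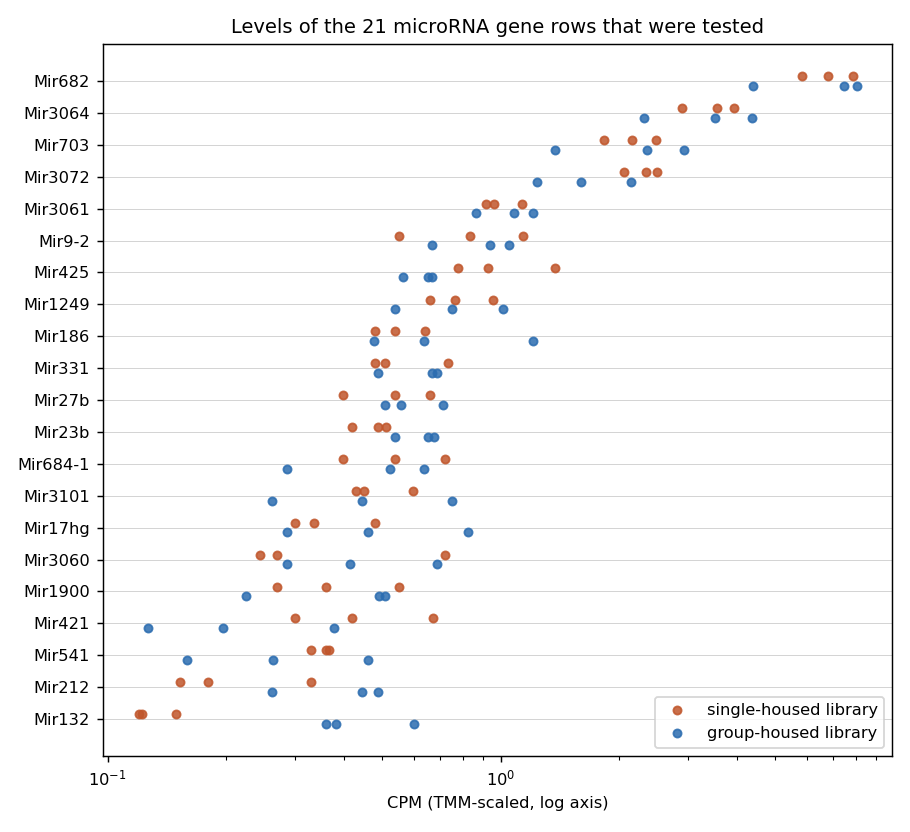
TMM-scaled CPM (log axis) of the 21 rows that passed the low-count filter, with 1 point per library, single-housed libraries in orange and group-housed libraries in blue. Libraries of both groups intermix in all rows except Mir132 and Mir23b, where the single-housed points lie lower, and Mir425, where they lie higher.

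Mir132 had the smallest p-value of the members, with lower counts in the single-housed libraries. Its row (chromosome 11, 74987184 to 74987249, mm9, plus strand) had 4, 5 and 4 counts in single-housed replicates 1, 2 and 3, and 16, 11 and 12 counts in group-housed replicates 1, 2 and 3. Every group-housed library was above every single-housed library, although the single-housed libraries were the deeper ones. The single-housed mean was 0.130 ± 0.0164 CPM and the group-housed mean 0.447 ± 0.134 CPM (SD, n = 3 each), a log2 difference (single-housed minus group-housed) of −1.73 with an SE of 0.394. The unadjusted p was 0.00191, and after adjustment over all 15258 genes tested the row did not pass (edgeR's quasi-likelihood test, Benjamini-Hochberg adjusted p = 0.9999). Mir132 passed the low-count filter only through its group-housed libraries, so its presence among the rows tested already favours a difference in that direction. In bulk tissue, fewer cells of a type and less RNA per cell cannot be told apart.

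Mir212 lies 203 bases upstream of Mir132 on the same strand (74986890 to 74986980). It had 5, 11 and 6 counts in single-housed and 13, 8 and 14 counts in group-housed replicates 1, 2 and 3. The groups overlapped, because single-housed replicate 2 exceeded group-housed replicate 2. Its log2 difference was −0.83 (SE 0.422, unadjusted p = 0.0817, adjusted p = 0.9999, edgeR). Summed as 1 row, a choice made after seeing the data, the pair had 9, 16 and 10 against 29, 19 and 26 counts. That sum differed by −1.25 (SE 0.333, unadjusted p = 0.00485, adjusted p = 0.9999, edgeR). Of the other neighbouring rows summed in the same way, Mir2861 with Mir3960 differed by −1.55 (unadjusted p = 0.00478), Mir191 with Mir425 by 0.63 (unadjusted p = 0.0588) and Mir421 with Mir374 by 0.39 (unadjusted p = 0.380). The deposited table holds no other row that spans either hairpin. The nearest exon, 2196 bases from Mir132, belongs to Ovca2 on the opposite strand.

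Immediate early genes, whose transcripts neurons make within minutes of activity, were also lower on average in single-housed libraries. All 16 of the list had a difference below 0, with a median of −0.72 on the log2 scale beside 0.00 for all genes, and edgeR called 0 of them. At an unadjusted p under 0.05 in edgeR's test there were 13 of 16, against 1.56% of all genes tested. The groups did not overlap for 10 of 16, against 4.86% of all genes tested. The list was chosen with earlier results of these data known. Fos, which encodes an AP-1 subunit, had levels of 13.1, 15.7 and 11.6 CPM under single housing and 52.0, 23.0 and 33.2 CPM under group housing (replicates 1, 2 and 3). Egr2, a zinc-finger transcription factor gene, was at 3.54, 3.02 and 3.09 against 14.0, 6.71 and 11.5 CPM. Group-housed replicate 1, the library with the most Mir132, was the highest of its group for 8 of the 16 genes, among them Fos, Egr2 and Arc, the gene of a postsynaptic protein (359 CPM, with 141 and 156 CPM in replicates 2 and 3). It was the lowest of its group for 4 genes, Egr1, Egr3, Bdnf and Nptx2, and lay between the others for 4. Whether the list follows Mir132 among the group-housed libraries was not tested. The log2 differences were −1.42 (SE 0.265) for Fos, −1.74 (SE 0.250) for Egr2, −1.46 (SE 0.416) for Arc, −0.71 (SE 0.0941) for Fosb, another AP-1 subunit gene, −0.69 (SE 0.165) for Egr1, −0.85 (SE 0.146) for Egr4, −1.13 (SE 0.465) for Npas4, −0.88 (SE 0.257) for Nr4a1 and −0.27 (SE 0.136) for Bdnf. None of these 9 genes passed edgeR's test after adjustment over all genes, while DESeq2 called 5 of them: Fos, Fosb, Egr1, Egr2 and Egr4 (adjusted p from 4.47e-08 for Egr2 to 0.0403 for Egr1). Over the whole table DESeq2 called 8 genes (0.0524%). Bdnf and Npas4 had overlapping groups.

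**Figure D2:**
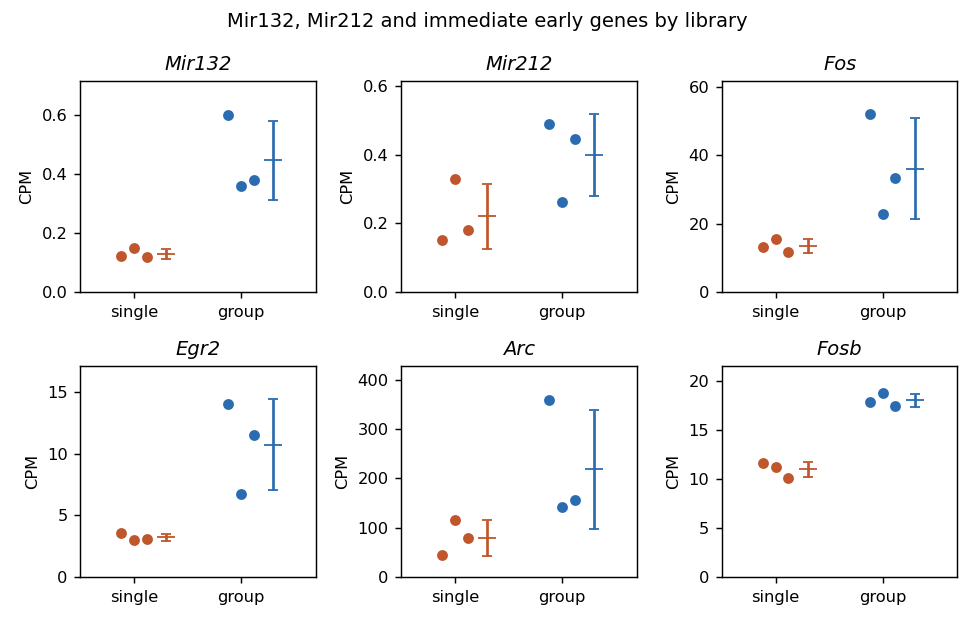
TMM-scaled CPM of Mir132, Mir212, Fos, Egr2, Arc and Fosb on linear axes from 0, with 1 point per library (replicates 1, 2 and 3 from left to right) and the mean ± SD of each group (n = 3) beside them. The groups are separate for Mir132, Fos, Egr2, Arc and Fosb and overlap for Mir212.

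Markers of neighbouring striatum varied between libraries. Of this list, 1 gene, Isl1, was at 0 counts in 3 libraries. All 16 had a higher level in single-housed libraries on average. Their summed level was 455 to 2361 CPM for single housing and 488 to 1119 CPM for group housing, so the groups overlapped. With the mean of these markers as a covariate, the Mir132 difference was −1.95 (SE 0.431), as large as without it. Markers of cortical excitatory neurons, microglia, astrocytes, oligodendrocytes, endothelium and meningeal fibroblasts also overlapped between groups in summed level, and none of their markers was at 0 counts in any library. On average, 8 of 8 microglia, 7 of 8 excitatory neuron and 9 of 10 oligodendrocyte markers were lower in single-housed libraries. The meningeal fibroblast markers were higher for 6 of 6, those of astrocytes for 3 of 7 and those of endothelium for 4 of 7. In edgeR's test 1 endothelial marker had an unadjusted p under 0.05 (1.56% of all genes tested). The choroid plexus list, with no marker at 0 in any library, summed to 2.52 to 7.17 CPM for single housing and 2.98 to 3.64 CPM for group housing. The part of these cell types in the differences of other rows was not tested beyond this covariate.

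Of the 75 members, 21 passed the low-count filter and were tested, and 0 passed edgeR's test after adjustment (0% of all 15258 genes did). The other 54 had 10 to 58 summed counts. At an unadjusted p under 0.05 there were 2 of 21, Mir132 and Mir425, where 1.56% of all genes tested were past that level. Mir425 was the 1 in the higher direction (0.832% of all genes) and Mir132 the 1 in the lower (0.727%). DESeq2 called 0 of the 21 after adjustment (0.0524% of all genes) and 1 at an unadjusted p under 0.05 (0.963% of all genes). The groups did not overlap for 3 of 21 rows, against 4.86% of all genes tested. Mir425 was higher (2.46% of all genes), and Mir132 and Mir23b were lower (2.4% of all genes). These shares rest on 2 or 3 rows. Of the 21 rows, 9 were higher and 12 lower in single-housed libraries (50.7% of all genes tested were higher), with a median log2 difference of −0.07 beside 0.00 for all genes. The filter set part of this tally: Mir132 reached its level in group-housed libraries only, while Mir541, Mir684-1 and Mir3101, all higher, reached it in every single-housed but not every group-housed library. The SE of a member was 0.313 in the median, against 0.113 over all genes tested, so a moderate difference was not detectable at these depths.

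Mir425 was the row of smallest p in the higher direction. Its row (chromosome 9, 108471108 to 108471192, mm9) had 45, 31 and 26 counts in single-housed and 15, 20 and 21 counts in group-housed replicates 1, 2 and 3. The groups did not overlap, at 1.03 ± 0.309 against 0.628 ± 0.0564 CPM (SD, n = 3 each). The difference was 0.70 (SE 0.277, unadjusted p = 0.0335, adjusted p = 0.9999, edgeR) and was 0.43 without single-housed replicate 1, the library with the most counts. Mir191, 384 bases upstream of Mir425 and cut from the same primary transcript, had 7, 1 and 4 against 1, 5 and 4 counts and was not tested. No deposited row spans this pair. The gene nearest to Mir425, Dalrd3, differed by −0.05 (SE 0.0851), and the gene nearest to Mir191, Ndufaf3 on the opposite strand, by 0.04 (SE 0.0904).

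Mir3072 lies in an intron of the long noncoding gene Mirg by the deposited coordinates. It had 82, 69 and 78 counts in single-housed and 57, 49 and 39 counts in group-housed replicates 1, 2 and 3. Scaled for depth, the groups overlapped, since group-housed replicate 1 (2.14 CPM) exceeded single-housed replicate 2 (2.06 CPM). The difference was 0.48 (SE 0.220, unadjusted p = 0.0584, edgeR) and was 0.30 without group-housed replicate 3. Mir421, a row in an intron of the noncoding gene B230206F22Rik, had 22, 14 and 10 against 10, 6 and 4 counts, and a difference of 1.01 (SE 0.476, unadjusted p = 0.0631, edgeR), with overlapping groups. With the striatal covariate it was 0.55. Leaving out single-housed replicate 1 gave 0.65, and leaving out group-housed replicate 1 gave 1.499. Its neighbour Mir374, 63 bases away on the same strand, had 7, 6 and 6 against 6, 15 and 3 counts, and was not tested.

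On the lower side, Mir23b followed Mir132 and Mir212. It had 16, 14 and 17 counts in single-housed and 18, 20 and 17 in group-housed replicates 1, 2 and 3, and its scaled levels did not overlap (0.472 ± 0.0477 against 0.624 ± 0.0734 CPM, difference −0.39, SE 0.255, unadjusted p = 0.168, edgeR). The raw counts of the groups meet at 17, so only the scaling separates them. Mir27b, which lies downstream of Mir23b in the same cluster, had 13, 18 and 22 against 19, 17 and 16 counts (−0.15, SE 0.292), and these groups overlapped. Mir186 had 37 counts in group-housed replicate 2 and 15 to 21 in every other library, with a difference of −0.49 (SE 0.369) that rests on that library (−0.00 without it). Mir17hg had 22 counts in group-housed replicate 1 and 9 to 16 in every other library (−0.46, SE 0.423), a difference that was 0.0023 without that library.

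Mir27b and the other 12 rows tested had differences between −0.17 and 0.26, each smaller than its SE, and their groups overlapped. Among them, Mir9-2 had 18, 28 and 38 counts in single-housed and 25, 32 and 21 in group-housed replicates 1, 2 and 3 (−0.07, SE 0.313). Mir1249 had 25, 32 and 22 against 27, 23 and 17 counts (0.06, SE 0.291), and Mir331 24, 17 and 16 against 13, 21 and 21 counts (−0.11, SE 0.284). Mir3061 had 30, 38 and 32 against 23, 33 and 38 counts (−0.07, SE 0.219), and Mir3064 116, 97 and 131 against 116, 107 and 73 counts (0.03, SE 0.232). Mir541 (0.26, SE 0.410), Mir684-1 (0.21, SE 0.367), Mir3060 (−0.17, SE 0.502), Mir1900 (−0.08, SE 0.405) and Mir3101 (0.04, SE 0.389) varied as much within as between the groups.

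**Figure D3:**
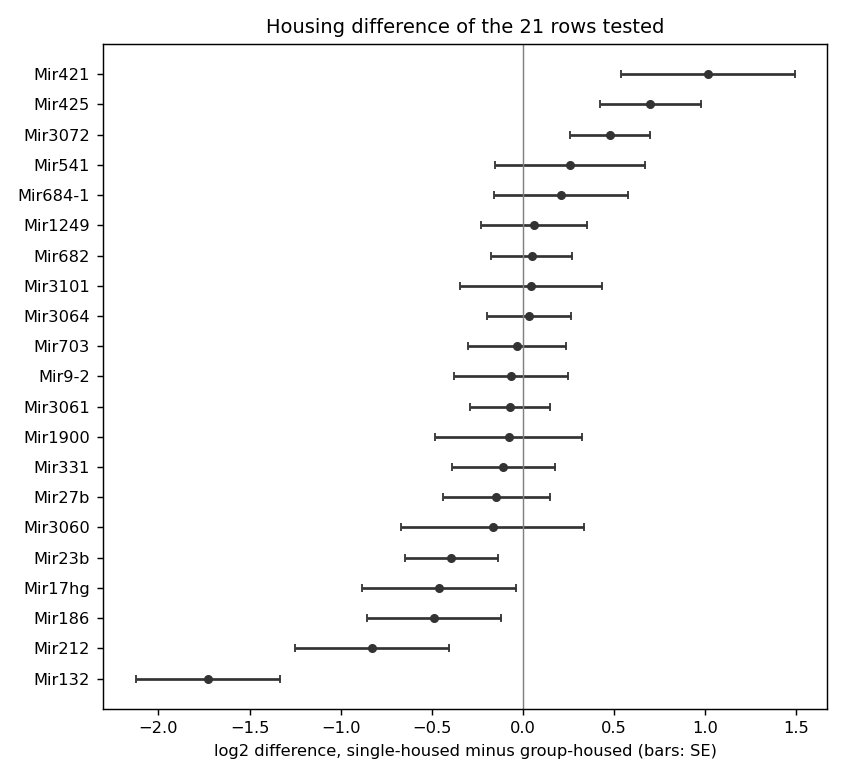
Log2 difference, single-housed minus group-housed, of the 21 rows tested (points) with its SE (bars), ordered by size. Mir132 lies at −1.73 and Mir421 at 1.01, and most other rows lie within 1 SE of 0.

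Other genes of microRNAs linked to neuronal activity were too low to test. Mir134, whose microRNA acts on dendritic spines, had 7, 4 and 2 counts in single-housed and 6, 4 and 2 in group-housed replicates 1, 2 and 3. Mir138-1, another gene of a synaptic microRNA, had 4, 4 and 3 against 2, 7 and 2 counts. The Mir138-2 row joins 2 loci and had 8, 6 and 8 against 11, 11 and 1 counts. Mir219-2, whose microRNA is known from oligodendrocyte maturation, had 9, 9 and 4 against 6, 1 and 3 counts. Of the 23 rows present from the list of 26 activity-linked symbols, 7 had 0 counts in all libraries, and the 3 tested were Mir132, Mir212 and Mir9-2, all lower and none past the adjusted threshold.

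Among the 75 members, tested or not, the scaled groups did not overlap for 10 (13.3%), beside 5.33% of all rows with a summed count of 10 or more. These other rows are not matched to the members in depth, and neighbouring members are counted separately. Mir3960 and Mir2861 are adjacent rows near Cdk9, a kinase gene of transcription elongation (chromosome 2, 32568420 to 32568492 and 32568327 to 32568408, mm9). They had 6, 4 and 3 against 9, 15 and 6 counts and 2, 2 and 3 against 5, 12 and 6 counts, lower in each single-housed library once scaled. For Mir3960 the raw counts of the groups meet at 6, so only the scaling separates them. In the fit with no filter the differences of Mir3960 and Mir2861 were −1.35 (SE 0.510, unadjusted p = 0.0239) and −1.82 (SE 0.570, unadjusted p = 0.00921), with adjusted p = 0.9999 (edgeR). Cdk9 itself differed by −0.08 (SE 0.0969). The Mir3960 and Mir2861 hairpins had the highest GC content of the 68 hairpins found, 82.2% and 73.2% beside a median of 55.1%.

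Higher in each single-housed library were Mir568 (13, 12 and 9 against 6, 4 and 7 counts), Mir668 (4, 6 and 6 against 3, 2 and 3), Mir7-1 (4, 6 and 6 against 1, 3 and 2) and Mir126 (4, 5 and 4 against 1, 3 and 1). Mir126, whose microRNA is known from endothelial cells, lies in an intron of the endothelial gene Egfl7, which differed by −0.01 (SE 0.0991). Mir466i, with 0, 2 and 2 against 4, 4 and 2 counts, was separated only by the scaling of equal counts. With no filter, all of these had an unadjusted p above 0.05, between 0.0721 and 0.172.

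Most members lie inside or close to other genes. By the deposited coordinates, 34 rows were intronic on the strand of a host gene, 4 overlapped an exon of such a host, 5 lay in an intron of a gene on the opposite strand, 29 were spanned by no other row, 2 joined several loci and 1 was the host transcript Mir17hg. The overlap with an exon was 1 base for Mir3064 and for Mir369, 11 bases for Mir343 and 26 bases for Mir3057. For the 38 rows with a host on the same strand, the read density of the row was 11.2% of the density of the host's exons in the median, with a range of 0.350% to 171%. It was under 10% for 17 rows and above the host's for 2, Mir3072 (23.9 against 13.9 CPM per kilobase in Mirg) and Mir421 (4.58 against 3.52 in B230206F22Rik). At the other end, Mir677 stood at 2.46 CPM per kilobase in Atp5b, a mitochondrial ATP synthase gene with 701 CPM per kilobase. The read length and the overlap required for a read to count are not stated in the labels or headers, so densities of such short rows are approximate. Rows with a summed count under 10 were left out by the rule, which puts a floor under these densities and raises their median.

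**Figure D4:**
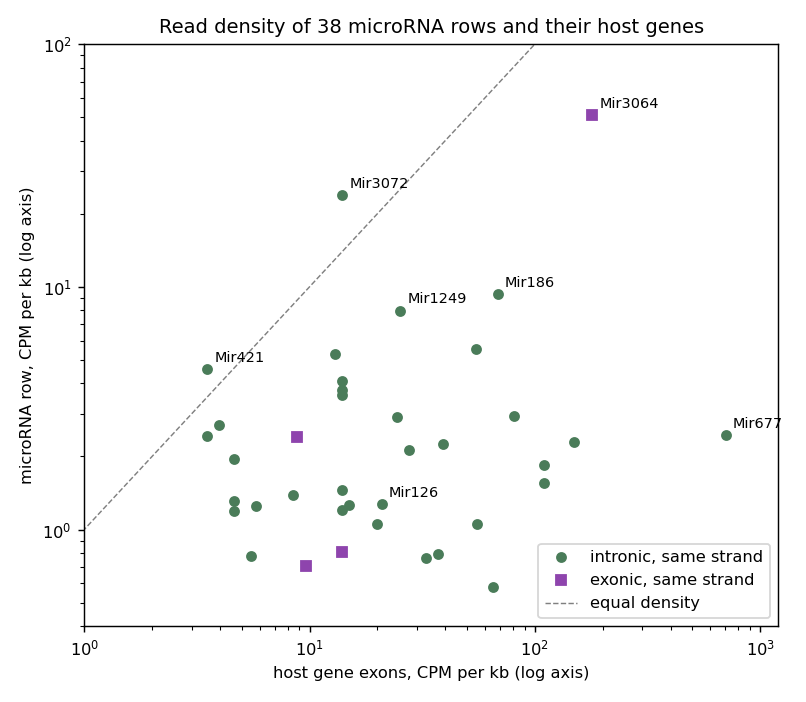
Mean read density over the 6 libraries (CPM per kilobase, both axes log) of 38 microRNA rows against the exons of the host gene on the same strand, with circles for intronic rows, squares for rows that overlap a host exon and a dashed line at equal density. Mir3072 and Mir421 lie above the line, and Mir677 lies farthest below it.

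The sequences of the hairpins also matched transcripts for some rows that no deposited gene spans. Of 68 hairpins found in RefSeq, 31 matched a transcript of another gene in GENCODE M21 on the same strand (at least 50 bases at 95% identity or more). For 11 intronic and 2 exonic rows among them, a matched gene was the deposited host. In the case of Mir3072, 58 of the hairpin's 83 bases matched a noncoding Mirg transcript, so its place in an intron depends on the annotation. Of the 29 rows spanned by no deposited row, 14 matched a transcript in this way, although a match of sequence need not be the place of the row. They include Mir9-2 in the noncoding gene C130071C03Rik, Mir425 and Mir191 in the noncoding gene 4833445I07Rik, Mir3061 in the phosphatase gene Ppp2ca, Mir331 in Vezt, Mir568 in Zbtb20, and Mir3960 and Mir2861 in Cdk9. The 14 also include Mir682, matched to Rpl37a and processed pseudogenes, and the 31 include Mir703, matched to Eef1a1 (both described below). Neither the Mir132 nor the Mir212 hairpin matched a transcript of another gene. Of the genes so matched, Ppp2ca differed by −0.03 (SE 0.0671), Vezt by 0.05 (SE 0.0843) and C130071C03Rik by 0.04 (SE 0.165). Of the 8 tested rows with a host on the same strand, 1 had a difference of the same sign as its host. Each of these hosts differed by less than its SE, and Mirg is the host of both Mir3072 and Mir541, so the signs carry little information.

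The 2 rows Mir682 and Mir703 nearly match protein-coding messenger RNAs, and their counts are uncertain for this reason. The Mir682 hairpin matched the ribosomal protein gene Rpl37a over all 96 bases with 1 difference, U48C (the Rpl37a base first, positions counted from the 5′ end of the hairpin), and the processed pseudogene Gm4149 without a difference. It is shown with the differing base in capitals.
Mir682 hairpin: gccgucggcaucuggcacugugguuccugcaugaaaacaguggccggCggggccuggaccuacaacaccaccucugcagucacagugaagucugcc

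Mir703 matched Eef1a1, the gene of a translation elongation factor, over 109 bases at 98.2% identity. Mir682 had 223, 263 and 195 counts in single-housed and 214, 134 and 235 in group-housed replicates 1, 2 and 3 (0.05, SE 0.221), and Mir703 had 60, 83 and 72 against 78, 42 and 74 counts (−0.03, SE 0.268). Group-housed replicate 2 was the lowest library for both rows, and for Rpl37a (11.5 CPM, 12.4 to 16.6 CPM in the others) and Eef1a1 (749 CPM, 763 to 892 CPM in the others). This is not particular to these pairs. That library was also the lowest for Rps21 (42.9 CPM, 52.6 to 72.9 CPM in the others) and Atp5b (1244 CPM, 1275 to 1407 CPM in the others). Per length, Mir682 (70.1 CPM per kilobase) was above the Rpl37a row (22.5), and Mir703 (20.1) was below Eef1a1 (456). Whether reads of these genes were placed on the microRNA rows was not tested.

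The largest group of members lies in the imprinted region of chromosome 12 that is transcribed from the maternal allele as Meg3, Rian and Mirg. Of 55 microRNA rows on the plus strand between the start of Meg3 and the end of Mirg (110779206 to 110987667, mm9), 14 had 10 or more counts, 15 had 1 to 9 and 26 had 0. Reads were concentrated at the Mirg end: 10 members within 14190 bases held 665 counts, of which Mir3072 had 374. Their sum per library was 139, 115 and 126 counts in single-housed and 109, 99 and 77 in group-housed replicates 1, 2 and 3. Scaled, the groups overlapped at 3.82 ± 0.404 against 3.26 ± 0.826 CPM (SD, n = 3 each). Within this sum the rows varied. Mir377 had 8, 9 and 7 against 8, 8 and 8 counts, while Mir409 had 8, 3 and 9 against 21, 8 and 9.

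The host transcripts of this region showed small differences with housing. Meg3 was at 2822 ± 217 against 2878 ± 944 CPM (−0.03, SE 0.216), Rian at 390 ± 22.9 against 398 ± 37.9 CPM (−0.03, SE 0.0895) and Mirg at 17.7 ± 0.814 against 18.5 ± 4.73 CPM (−0.06, SE 0.168). Group-housed replicate 3 was the lowest library for all 3 genes. At the Rian end, Mir1188 and Mir341 had 15 and 10 counts in group-housed replicate 2 but 2 to 7 and 1 to 6 counts in the other libraries.

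**Figure D5:**
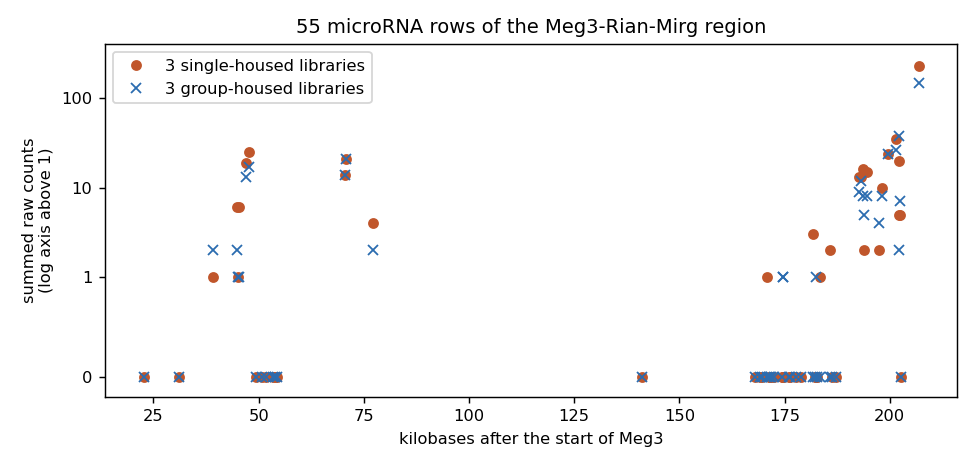
Raw counts summed over 3 single-housed (circles) and 3 group-housed (crosses) libraries for 55 microRNA rows by distance from the start of Meg3 in kilobases, on an axis that is linear from 0 to 1 and log above. The counts are highest at the Mirg end, where Mir3072 reached 374 over both groups, and 26 rows lie at 0.

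Genes that process and use microRNAs showed small differences with housing. In the lists of this paragraph and the next, 0 genes had an unadjusted p under 0.05 in edgeR's test and DESeq2 called 0. Of 13 genes of nuclear processing and export tested, 4 were higher, 9 lower and 0 past the adjusted threshold (median −0.02). Drosha was at 160 ± 4.22 against 163 ± 6.28 CPM (−0.03, SE 0.0676). The smallest p-values here were those of the cap-binding gene Ncbp2 (−0.07, SE 0.0755), the RNA editing gene Adarb1 (0.06, SE 0.0835) and the splicing regulator gene Khsrp (0.05, SE 0.0711). Of 8 dicing genes tested, 8 were higher by small amounts and 0 passed (median 0.06). Dicer1 was at 57.9 ± 0.947 against 55.7 ± 4.89 CPM (0.06, SE 0.0790), and the let-7 regulator gene Lin28b at 4.85 ± 0.614 against 4.12 ± 0.693 CPM (0.24, SE 0.163), while its relative Lin28a had 0 counts.

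Of 11 genes of the effector complex, 8 were higher, 3 lower and 0 passed (median 0.04). The Argonaute genes are listed under their older names. Eif2c2, which encodes Argonaute 2, was at 40.4 ± 8.77 against 38.9 ± 16.7 CPM (0.05, SE 0.277), and Eif2c4 had the smallest p of the list (0.13, SE 0.1185). Of 10 turnover and deadenylation genes, 5 were higher, 5 lower and 0 passed (median 0.02), with Tsnax (−0.13, SE 0.0924) and the exonuclease gene Xrn2 (0.09, SE 0.0709) in front. Of 5 long noncoding hosts tested, 5 were lower and 0 passed (median −0.06). Dleu2, which hosts the genes of miR-15a and miR-16, had the smallest p, at 4.04 ± 0.260 against 5.01 ± 0.597 CPM with groups that did not overlap (−0.31, SE 0.139, unadjusted p = 0.0533, edgeR).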

How the data were processed

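Counting was done with featureCounts on STAR alignments to mouse build mm9 as far as the tool and build names in the submitters' processing notes tell; FastQC is named there too. The library kit keeps strand and selects polyadenylated RNA, per the labels' protocols. For versions, gene annotation and strandedness of counting, the answer is: not given in the sources used here. Whole-number read counts per gene were deposited, not normalized, beside the gene's coordinates and exon length, per the file headers. Columns were matched to samples by title.

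Host genes were found from the deposited coordinates, and sequences are RefSeq's (GRCm38.p6), matched by symbol. Hairpins were aligned to GENCODE M21 transcripts with blastn. Genes were tested with edgeR 4.0.16 (R 4.3.3; quasi-likelihood F-test, TMM, filterByExpr with a minimum count of 10 and a minimum total of 15, Benjamini-Hochberg over 15258 genes, threshold 0.05). Each SE is the log2 difference divided by the root of its F value; the fit was tested on simulated data. Alternatives were DESeq2 (1.42.0) and its size factors, other filters, leave-one-out fits, a replicate block and the striatal marker mean as a covariate; summed neighbouring rows were added later. Members and lists were chosen with earlier results of these data known. The named rows are Mir132, Mir212, the 12 most abundant, up to 8 per direction by p, those at the rule's limit and those of a list linked to neuronal activity; rows beyond these were named after their values were seen. No pair of libraries agreed within sampling noise (chi-square per degree of freedom 8.56 to 40.6).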

Additional observations from a re-analysis of the deposited data

How the results depend on the processing

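The log2 difference of Mir132 kept its sign in all 11 alternatives that gave a value, from −1.95 to −1.48, with adjusted p from 0.875 to 1. Mir212, Mir3072, Mir425, Mir23b, Mir186 and Mir421 also kept their sign, Mir186 only at −0.0013 without group-housed replicate 2. For Mir132, Mir425 and Mir23b the scaled groups did not overlap, so leaving out a library could hardly reverse the sign. No alternative called a microRNA row, while the count of genes called over the whole table was 8 with DESeq2 and 0 to 1 when a library was left out (1 without group-housed replicate 1 and 1 without group-housed replicate 2). With the replicate block, 0 genes were called and Mir132 differed by −1.73. The deviations of same-numbered libraries had correlations of 0.271, −0.318 and 0.170. Those of differently numbered libraries from opposite groups ranged from −0.429 to 0.350. The same-numbered values lie within that range and are few, so they cannot decide whether the numbers pair the samples. For 12 rows the difference, from −0.46 (Mir17hg) to 0.26 (Mir541), changed sign when a library was left out: Mir682 ranged from −0.18 to 0.21, Mir3064 from −0.18 to 0.25, Mir703 from −0.29 to 0.21, Mir3061 from −0.19 to 0.042, Mir9-2 from −0.34 to 0.16, Mir1249 from −0.15 to 0.30, Mir331 from −0.32 to 0.0030, Mir27b from −0.33 to 0.022, Mir541 from −0.054 to 0.75, Mir684-1 from −0.068 to 0.45, Mir17hg from −0.77 to 0.0023 and Mir3060 from −0.84 to 0.25. With the striatal covariate the sign changed for Mir682 (−0.092), Mir9-2 (0.12), Mir1249 (−0.093) and Mir3060 (0.19). The cause was not tested. The differences of Mir1900 and Mir3101, which were also tested, were not followed through the alternatives. A mean CPM above 1 left 5 members and not Mir132. Counts of 52 to 146 over 6 libraries limit most rows.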

Other observations

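The let-7 genes, whose symbols begin with Mirlet7 and so fall outside the naming rule, left reads of a similar depth. Mirlet7b had 118 summed counts, Mirlet7d 84 and Mirlet7c-2 81, while Mirlet7a-2, Mirlet7g and Mirlet7f-2 had 0. Mirlet7b differed by 0.03 (SE 0.273), Mirlet7d by 0.38 (SE 0.413) and Mirlet7c-2 by 0.36 (SE 0.323) between single-housed and group-housed libraries, and none passed edgeR's test (adjusted p = 0.9999).

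Of the members, 2 share their place with small RNAs of another kind. The GENCODE M21 record named Mir1839 includes a small Cajal body RNA that matched 66 of the hairpin's 73 bases, and the record named Mir677 a small nucleolar RNA that matched 72 of 78 bases. Mir1839 had 8, 7 and 7 counts in single-housed and 7, 5 and 3 in group-housed replicates 1, 2 and 3, and Mir677 had 4, 6 and 10 against 6, 5 and 5.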
